A study of Mus musculus with 15 samples.

Results

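RNA was measured in a module of 41 mouse genes that build, load and release synaptic vesicles, among the 55359 genes of the deposited matrix. The members were taken by gene name, and all 41 were found. They comprise the SNARE proteins and their disassembly factors, SNARE regulators, calcium sensors and other synaptotagmins, priming and active zone proteins, Rab3 GTPases with an effector, vesicle membrane proteins with the synapsins, and 1 vesicle recycling adaptor.

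The 15 samples formed 5 groups of 3. 57SCLC_cell was a small cell lung carcinoma (SCLC) line growing in suspension, from tumors raised with an adenovirus that carries Cre under the keratin K5 promoter (Ad-K5cre), and its samples came from separate flasks named A, B and C. 46LCNEC_cell was an adherent large cell neuroendocrine carcinoma (LCNEC) line from tumors raised with Cre under the CMV promoter (Ad-CMVcre), and its samples came from separate dishes named A, B and C. Both viruses were given into the trachea of QKO mice, whose alleles include floxed Rb1 and Trp53 and a null Rbl1. 57SCLC_allo (tumors 275, 316 and 317) and 46LCNEC_allo (tumors 312, 319 and 321) were allografts of the same lines grown under the skin of QKO recipients, and Lung (CT3, CT4 and CT5) was normal lung of littermates of the recipients. Each tumor type was represented by 1 line, so the difference between tumor types cannot be told apart from the difference between these 2 lines. Within each line, the flasks or dishes were cultures at 1 passage, so p-values between cultures measure only the spread between them. Per the study's methods, the passage was not the same in the 2 lines, so passage cannot be told apart from line.

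In regulated exocytosis, a vesicle is filled, brought to the membrane by Rab3 and its partners, docked and primed by Munc13, RIM and CAPS proteins, and held ready by complexins. The SNAREs on vesicle and target membrane then zip together when a synaptotagmin binds calcium, and Nsf takes the used complexes apart. Neurons and neuroendocrine cells share much of this apparatus, and its synaptophysin is among the markers used to diagnose lung neuroendocrine tumors.

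The libraries held 9480244 to 44876572 reads counted to genes (median 26502525), the smallest in tumor 275. Values are normalized counts, that is reads per gene divided by the DESeq2 size factor of the sample, and a floor of 3 reads per library was taken as not detected (1.56 to 7.18 normalized counts). Floors cover counting error only. Flask C of 57SCLC_cell stood apart from flasks A and B, with a chi-square per degree of freedom of 144 and 127 against 2.80 between A and B. The 46LCNEC allografts stood 92.6 to 133 apart. The targeted genes given here were read in every group, at mean normalized counts of 85.7 to 414 for Rb1, 830 to 2881 for Rbl1 and 997 to 1465 for Trp53, and whole-gene counts do not show which exons are lost. All 9 neuroendocrine markers looked up were above the floor in the 57SCLC groups, with sums of 38897 to 81238. In 46LCNEC, Ncam1 held most of the sum (28614 to 31510 in culture, 3058 to 7384 in allografts) and Scg2 and Resp18 were not detected. The 6 lung epithelium markers summed to 348240 to 456457 in Lung and to 126 to 551 in the other groups.

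Sequence near the starts of some members is given first. RE1 is the element read by the repressor REST, which holds neuronal genes silent in other tissues. A 21-base RE1 consensus with 18 fixed letters was searched on both strands within 1000 bases of each start of the 21614 protein-coding genes, in GRCm39. With at most 1 mismatch in the fixed letters, it lay near 25 starts (0.116%), and 3 of these were members (7.32% of 41): Syn1, Syp and Syt4. Syt4 was not tested between the lines, and Syn1 had the smallest fold change of the members called in both settings. Capitals mark the letters that match the element.
Syn1 RE1 match: TTCAGCACCgcGGtCAGaGCC
Syp RE1 match: TcCAGCACCgtGGACAGaGCC
The Syn1 match is at chrX:20787369-20787389 on the minus strand, in the untranslated part of exon 1, with its centre 18 bases after the start. The Syp match is at chrX:7504976-7504996 on the plus strand, 276 bases after the start, in an intron of the main transcript and within an exon of another. The search was chosen after the values were known, and a match is a description of sequence only.

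The 250 bases before the start are shown for Cplx2 and Syt7, the members with the highest per-kilobase levels in 57SCLC, and for Snap25, the SNARE with the largest difference between the lines. Capitals mark an E-box, CAGCTG, the element of proneural factors.
Cplx2, chr13:54518904-54519153 (+): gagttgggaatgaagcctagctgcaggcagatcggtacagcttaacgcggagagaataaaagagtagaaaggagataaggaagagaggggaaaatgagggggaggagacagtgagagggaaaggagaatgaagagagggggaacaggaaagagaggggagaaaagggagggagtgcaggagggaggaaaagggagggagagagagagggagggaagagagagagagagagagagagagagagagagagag
Syt7, chr19:10365783-10366032 (+): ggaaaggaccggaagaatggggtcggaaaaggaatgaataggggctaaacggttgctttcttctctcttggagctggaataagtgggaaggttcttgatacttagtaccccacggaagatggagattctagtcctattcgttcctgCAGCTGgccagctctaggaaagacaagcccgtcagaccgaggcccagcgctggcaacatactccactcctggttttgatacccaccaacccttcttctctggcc
Snap25, chr2:136554966-136555215 (+): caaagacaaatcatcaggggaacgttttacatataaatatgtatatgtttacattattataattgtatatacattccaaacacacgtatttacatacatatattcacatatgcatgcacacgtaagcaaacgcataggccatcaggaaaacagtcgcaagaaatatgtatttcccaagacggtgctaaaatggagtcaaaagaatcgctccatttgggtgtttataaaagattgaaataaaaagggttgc
None of the 3 windows touches an annotated exon of its gene. The Snap25 window precedes the start of the main transcript but lies within the annotated span of the gene, which begins further upstream. The Syt7 window held an E-box 104 to 99 bases before the start, and the other windows held none. Over all members an E-box stood in 6 of 41 windows (14.6%), against 11.9% of 21614 promoters. A GC box, GGGGCGGGG, stood in 9 of 41 (22%) against 11.4%, and the cAMP response element TGACGTCA in 0 of 41 against 1.69%. GC content had a median of 56.4% over the members' windows (53.2% over all promoters), and the Snap25 window was the lowest of the members at 33.2%.

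The members were far higher in 57SCLC than in 46LCNEC. In culture, 35 of 39 members tested were higher in 57SCLC_cell and 1 was lower, where 23.9% and 22.2% of all 16920 genes tested were called in these directions. In allografts, 25 of 38 were higher and 0 lower, against 16.1% and 14.2% of 17502 genes. The count of members lower in 57SCLC_allo was 0 with limma, edgeR and DESeq2, and 0 lower members had an unadjusted p under 0.05 in limma. A gene was called with limma at an adjusted p of at most 0.01 and a change of at least 2-fold. The median log2 fold change of the members was 4.42 in culture and 5.54 in allografts, and the median over all genes tested was 0.00 and 0.01. In all, 25 members were higher in 57SCLC in both settings, from Syn1 (1.17 in both) to Pclo (12.54 and 11.59). Another 10, Syt14, Stx1a, Vamp1, Vamp2, Sv2a, Doc2b, Cadps, Bsn, Napb and Erc2, were called in culture and did not pass in allografts. The 2 comparisons share no samples, but both rest on the same 2 lines. Log2 fold changes are on the log2(normalized count + 1) scale, which understates the change of low genes. Where one group lay at the floor, the fold is given as a lower bound against 3 reads per library. Without flask C, the same 36 members were called in culture. With library-total scaling, the median over all genes moved to 0.24 in culture and 0.28 in allografts, and the share of higher among all genes called in allografts went from 53.1% to 64.5%. In bulk samples, fewer cells of a type and less RNA per cell cannot be told apart.

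**Figure D1:**
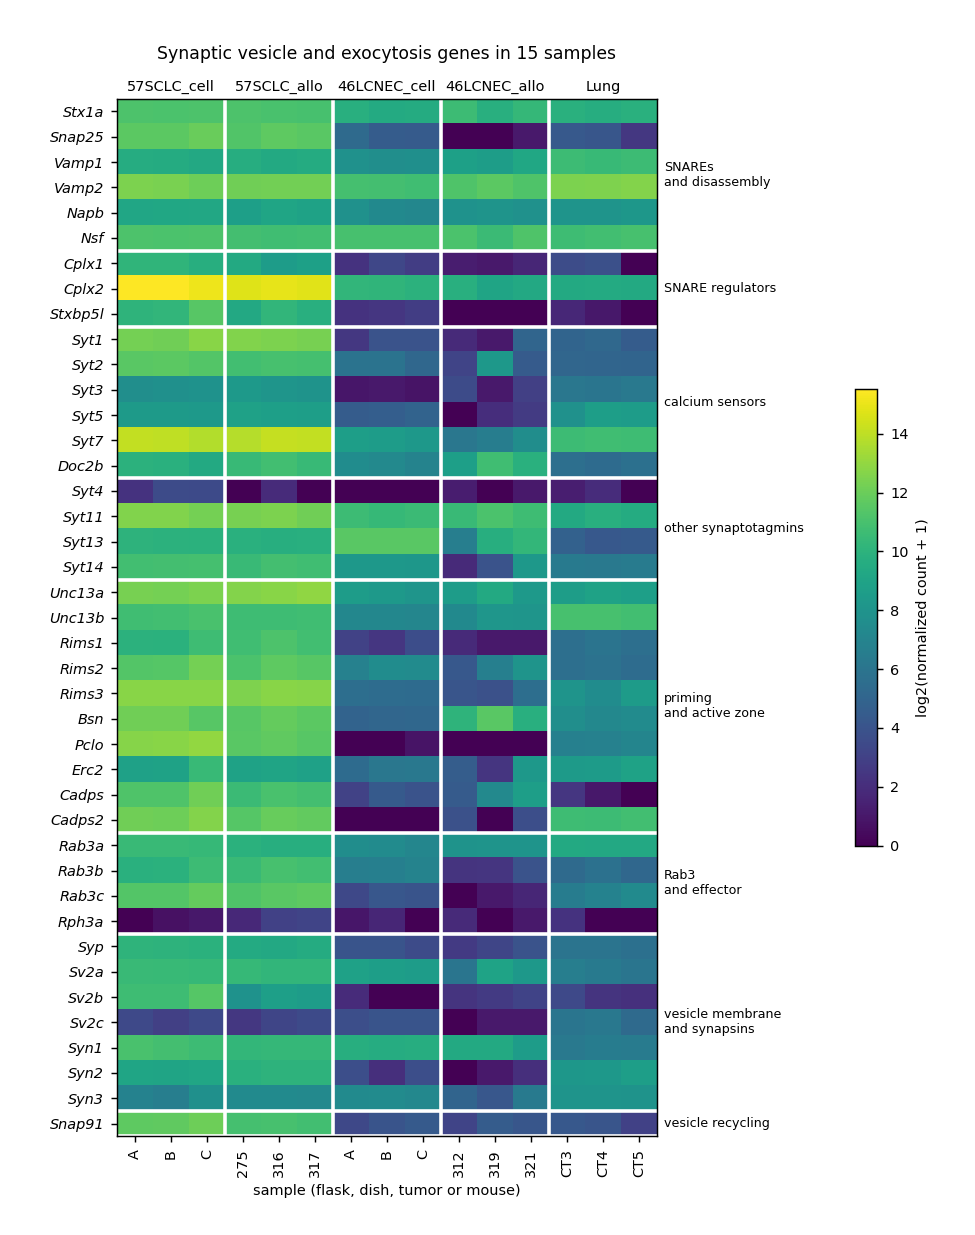
Heatmap of log2(normalized count + 1) for the 41 members (rows, by role) in the 15 samples (columns, by group). Cplx2 and Syt7 are the brightest rows in the 57SCLC samples, Pclo is near 0 in all 46LCNEC samples, Stxbp5l and Rab3c are near 0 in the 46LCNEC allografts, and Nsf and Vamp2 stay bright in every group.

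**Figure D2:**
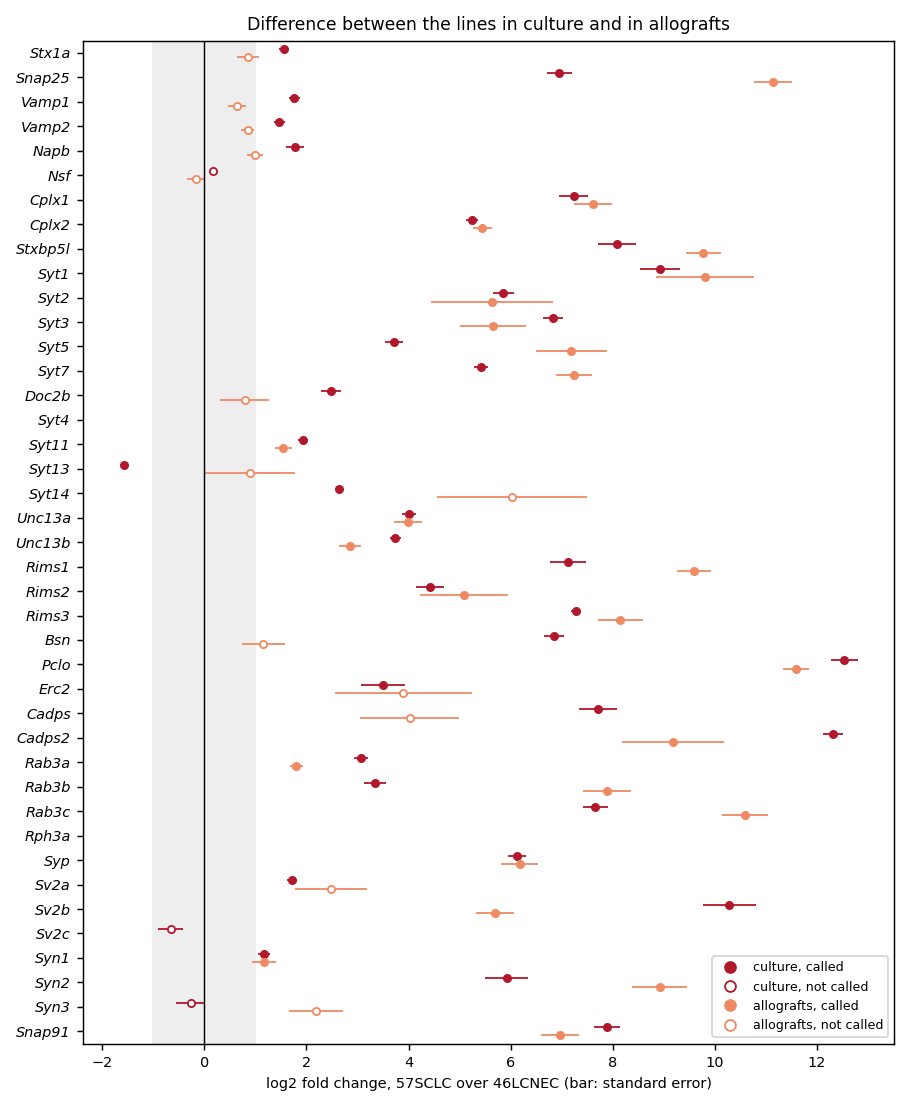
Log2 fold change of 57SCLC over 46LCNEC for each member in culture (dark) and in allografts (light), with the standard error as bars, filled symbols for members called and a grey band for changes under 2-fold. Most points lie to the right, Syt13 lies at -1.58 in culture, and the allograft bars are often wider. Syt4 and Rph3a were not tested, and Sv2c was tested in culture only.

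Among the core fusion proteins, Snap25 set the lines apart by far more than the others, whose log2 fold changes were 1.78 or less. Snap25 (chr2:136533580-136624362, plus strand), a SNARE of the target membrane, read 3055, 3165 and 4002 in 57SCLC_cell (flasks A, B and C) and 2521, 3178 and 3029 in 57SCLC_allo (tumors 275, 316 and 317). It read 39.4, 22.1 and 20.8 in 46LCNEC_cell (dishes A, B and C), 0, 0 and 1.11 in 46LCNEC_allo (tumors 312, 319 and 321) and 19.4, 17 and 4.68 in Lung (CT3, CT4 and CT5). The same order of samples is used below. No 57SCLC sample came near the other groups, and the 46LCNEC allografts lay under the floor. Its log2 fold change between the cell lines was 6.95 ± 0.24 SE, adjusted p = 8.87e-08, and it was at least 732-fold higher in 57SCLC allografts (adjusted p = 6.91e-06).

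Vamp2, the vesicle SNARE, was the most abundant SNARE per kilobase in every group. It read 5644, 5403 and 4360.2 in 57SCLC_cell, 4598, 4667 and 4789.9 in 57SCLC_allo, 1962, 1844 and 1728 in 46LCNEC_cell, 2413, 3083 and 2374 in 46LCNEC_allo and 5570.1, 5787 and 6418 in Lung. Lung overlapped or passed 57SCLC, and 46LCNEC was the low group. The difference between lines was 1.47 ± 0.11 SE, adjusted p = 6.17e-06 in culture and was under 2-fold in allografts (0.85 ± 0.12 SE, adjusted p = 0.00125). Per kilobase of exon, Vamp2 was the leading member of 46LCNEC_cell (474 ± 30.0 SD, n = 3), 46LCNEC_allo (674 ± 102) and Lung (1521 ± 113). Its paralog Vamp1 read 778, 739 and 665 in 57SCLC_cell, 799.5, 685 and 747 in 57SCLC_allo, 227, 203 and 211 in 46LCNEC_cell, 448, 403 and 604 in 46LCNEC_allo and 1582, 1411 and 1597 in Lung. Lung was again highest, without overlap.

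Stx1a, the syntaxin that completes the complex, ranged from 2079 to 2367 in 57SCLC samples, 701 to 1559 in 46LCNEC and 808 to 919 in Lung. It was called in culture (1.56 ± 0.10 SE, adjusted p = 2.4e-06) and was under the 2-fold limit in allografts (0.86 ± 0.21 SE). Napb, a SNAP adaptor of Nsf, behaved likewise, with 1.78 ± 0.18 SE, adjusted p = 3.42e-05 in culture and 0.99 ± 0.16 (SE) in allografts. Nsf, the ATPase that takes SNARE complexes apart in all cells, ranged from 1506 to 2386 over the 15 samples. Its log2 fold change was 0.18 ± 0.06 (SE, adjusted p = 0.0298) in culture and -0.16 ± 0.18 (adjusted p = 0.474) in allografts, where scaling by library totals turned the sign to 0.10 (adjusted p = 0.678). In this class, 5 of 6 members were called higher in culture, against 23.9% of all genes, and 1 of 6 in allografts, near the 16.1% of all genes.

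**Figure D3:**
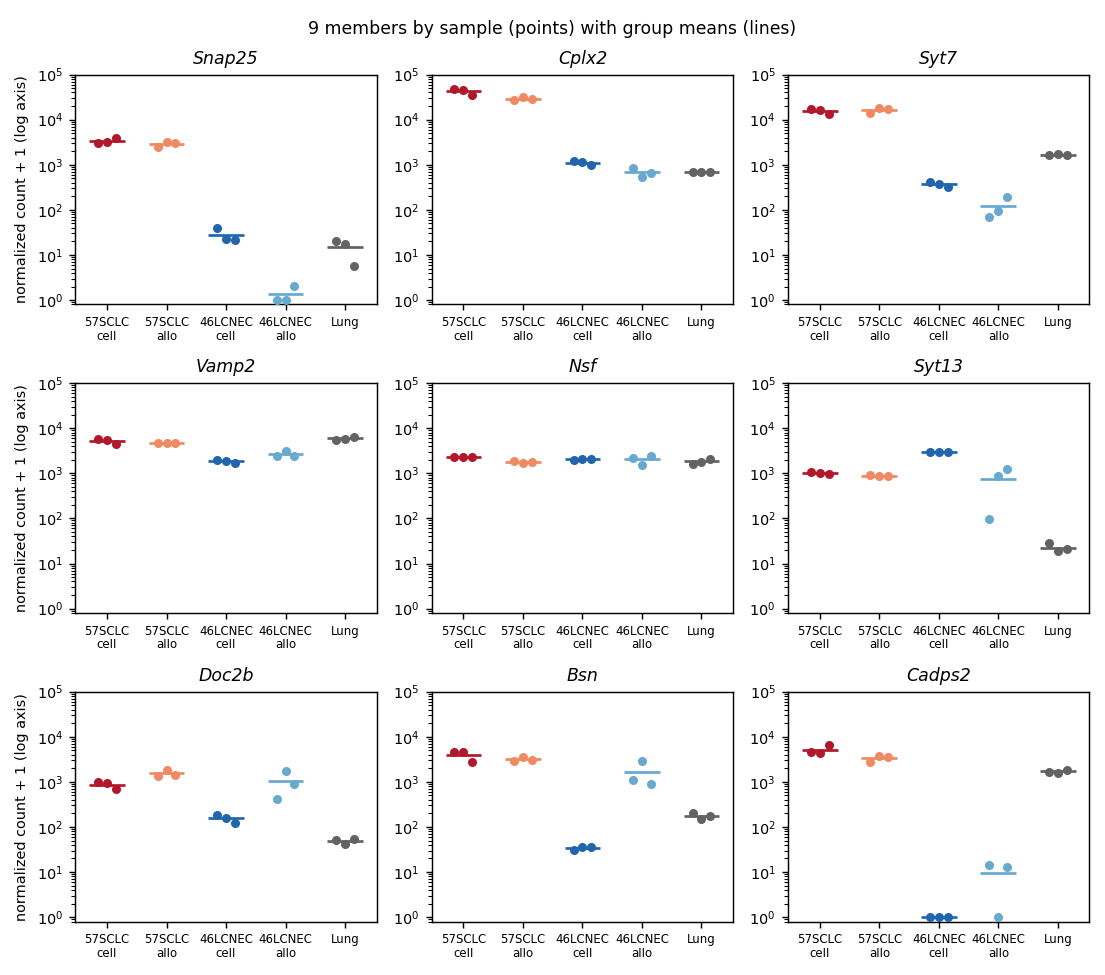
Normalized count + 1 on a log axis for 9 members in each sample (points) with group means (lines). Snap25, Cplx2, Syt7 and Cadps2 separate the lines, Nsf is level over all groups, Syt13 is highest in 46LCNEC_cell, and Bsn and Doc2b are high in 46LCNEC_allo.

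The SNARE regulators held the most abundant member. Cplx2 (chr13:54519154-54531730, plus strand), a complexin that clamps and then aids the assembled SNARE complex, read 46742, 45193 and 35871 in 57SCLC_cell and 27502, 31097 and 28724 in 57SCLC_allo. It read 1201, 1139 and 1007 in 46LCNEC_cell, 865, 523 and 649 in 46LCNEC_allo and 683, 702 and 682 in Lung, all below the lowest 57SCLC sample. Log2 fold changes between lines were 5.25 ± 0.12 SE, adjusted p = 1.26e-08 in culture and 5.45 ± 0.18 SE, adjusted p = 6.91e-06 in allografts. Per kilobase it led all members in 57SCLC, at 8631 ± 1191 (SD, n = 3) in culture and 5897 ± 370 in allografts, where it ranked 83 of the 19713 genes detected. It alone made up 34.5% to 43.5% of the summed per-kilobase level of the module in 57SCLC samples and 3.85% to 10.9% in the others. Without it, the sum was still 10374 to 12401 in 57SCLC, 1867 to 2614 in 46LCNEC and 3114 to 3457 in Lung.

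Cplx1 was likewise high in 57SCLC, at a lower level, with 1152, 1159 and 849 in 57SCLC_cell, 679.8, 372 and 452 in 57SCLC_allo, 3.75, 8.83 and 6.15 in 46LCNEC_cell, 1.32, 1.05 and 2.21 in 46LCNEC_allo and 11.2, 13 and 0 in Lung. The allografts of 46LCNEC were at the floor, so it was at least 126-fold higher in 57SCLC_allo (adjusted p = 1.58e-05). Stxbp5l, a tomosyn that ties up syntaxin and restrains fusion, read 1101, 1171 and 2849.6 in 57SCLC_cell, 649, 1166 and 884 in 57SCLC_allo, 3.75, 4.41 and 6.15 in 46LCNEC_cell, 0, 0 and 0 in 46LCNEC_allo and 2.24, 1.00 and 0 in Lung. It was at least 226-fold higher in 57SCLC_allo (adjusted p = 7.07e-06). All 3 regulators were called higher in 57SCLC in both settings, inhibitors and facilitators together. The shares of all genes called higher were 23.9% in culture and 16.1% in allografts.

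Among the calcium sensors, Syt7 carried the highest level. Syt7 (chr19:10366033-10430544, plus strand), a slow, high-affinity synaptotagmin found on many secretory granules, read 17174, 16595 and 13642 in 57SCLC_cell, 14092, 18345 and 17421 in 57SCLC_allo, 420.3, 373 and 314 in 46LCNEC_cell, 70.2, 93.7 and 190.3 in 46LCNEC_allo and 1618, 1748 and 1681 in Lung. The order 57SCLC, Lung, 46LCNEC held without overlap. Log2 fold changes between lines were 5.42 ± 0.13 SE, adjusted p = 1.55e-08 in culture and 7.25 ± 0.35 SE, adjusted p = 1.59e-05 in allografts. Per kilobase it was second among members in 57SCLC, at 1933 ± 232 (SD, n = 3) in culture and 2033 ± 274 in allografts.

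Syt1, the fast sensor of forebrain synapses, read 4903, 4599.9 and 6865 in 57SCLC_cell, 6089.8, 5593 and 5244 in 57SCLC_allo, 4.69, 14.3 and 14.6 in 46LCNEC_cell, 2.65, 1.05 and 32.1 in 46LCNEC_allo and 31.4, 36.9 and 22.2 in Lung. It was low or under the floor outside 57SCLC, with 8.92 ± 0.39 SE, adjusted p = 2.72e-07 in culture and 9.81 ± 0.96 SE, adjusted p = 0.000221 in allografts. Its close relative Syt2 ranged from 1829 to 3063 in 57SCLC, from 31.6 to 34.4 in Lung and from 7.95 to 303 in 46LCNEC. Tumor 319 held the 303, and the call in allografts (5.63 ± 1.19 SE, adjusted p = 0.0066) was lost without tumor 312 (adjusted p = 0.015), without tumor 321 (0.0202) and without any 1 of the 57SCLC tumors (0.0266 to 0.0282). It was also lost with edgeR (adjusted p = 0.0211). Syt1 took 52.2% to 70.8% of the Syt1 and Syt2 pair per kilobase in 57SCLC samples.

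Syt5, a sensor of dense-core vesicles, read 349, 344 and 328 in 57SCLC_cell, 467, 437 and 412 in 57SCLC_allo, 21.6, 24.3 and 30.0 in 46LCNEC_cell, 0, 3.16 and 5.53 in 46LCNEC_allo and 230.2, 416 and 372 in Lung. Lung and 57SCLC overlapped, while 46LCNEC lay lower. Syt3 ranged from 203 to 335 in 57SCLC, 63.8 to 77.3 in Lung and 0.77 to 10.6 in 46LCNEC, and was at least 66.2-fold higher in 57SCLC_cell than in 46LCNEC_cell (adjusted p = 3.9e-08). Doc2b, a sensor of spontaneous release, read 1000.4, 927 and 685 in 57SCLC_cell, 1374, 1823 and 1390.1 in 57SCLC_allo, 188, 159 and 121 in 46LCNEC_cell, 423, 1757 and 903 in 46LCNEC_allo and 50.1, 41.9 and 52.7 in Lung. The lines differed in culture (2.48 ± 0.20 SE, adjusted p = 1.06e-05) and overlapped in allografts (0.79 ± 0.48 SE, adjusted p = 0.2).

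The other synaptotagmins, which bind calcium weakly or not at all, held the exception. Syt13 (chr2:92745339-92790093, plus strand) read 1045, 999 and 963 in 57SCLC_cell, 902, 862 and 870.4 in 57SCLC_allo, 2968, 3026 and 2978 in 46LCNEC_cell, 98, 857 and 1257 in 46LCNEC_allo and 26.9, 18 and 19.9 in Lung. It was the only member called lower in 57SCLC, with -1.58 ± 0.07 SE, adjusted p = 2.35e-07 in culture (adjusted p = 0.0384 in 1 model of all 15 samples). In allografts its log2 fold change was 0.89 ± 0.89 (SE, adjusted p = 0.427) and changed sign to -0.24 (adjusted p = 0.322) without tumor 312, the library at 98. Syt11, a regulator of vesicle uptake, read 6062, 6003 and 5009 in 57SCLC_cell, 5235, 5551 and 4629 in 57SCLC_allo, 1606, 1329.9 and 1531 in 46LCNEC_cell, 1474, 2178 and 1668 in 46LCNEC_allo and 694, 901 and 737 in Lung. It was called in both settings with 1.93 ± 0.11 SE, adjusted p = 1.03e-06 and 1.55 ± 0.16 SE, adjusted p = 0.000286. Syt14 read 1783, 1894 and 1959.7 in 57SCLC_cell, 1467, 1912 and 1743 in 57SCLC_allo, 305, 302 and 301 in 46LCNEC_cell, 2.65, 14.7 and 309 in 46LCNEC_allo and 84.5, 76.8 and 87.8 in Lung. The 46LCNEC allografts were widely spread, and the difference of 6.02 ± 1.47 (SE, adjusted p = 0.0121) was not called. Syt4 was at most 10.9 in any sample and was not tested.

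Priming and active zone proteins were called higher in 57SCLC in 10 of 10 in culture and in 7 of 10 in allografts. Of all genes tested, 23.9% and 16.1% were called higher. Pclo, the giant scaffold Piccolo (chr5:14564932-14913473, plus strand), read 6648, 6774 and 8243 in 57SCLC_cell, 2983, 3400.3 and 2889 in 57SCLC_allo, 0, 0 and 0.77 in 46LCNEC_cell, 0, 0 and 0 in 46LCNEC_allo and 107, 114 and 133 in Lung. It lay at or under 3 reads in every 46LCNEC sample, and was at least 2181-fold higher in 57SCLC in culture (adjusted p = 7.82e-09) and at least 778-fold higher in allografts (adjusted p = 4.13e-06). Its partner scaffold Bsn, Bassoon (chr9:107973221-108067629, minus strand), did not follow it. Bsn read 4633, 4510.0 and 2812 in 57SCLC_cell, 2822, 3613 and 3108 in 57SCLC_allo, 30.0, 34.2 and 34.6 in 46LCNEC_cell, 1089, 2923 and 894 in 46LCNEC_allo and 202, 152 and 177 in Lung. It was called in culture (6.84 ± 0.20 SE, adjusted p = 3.39e-08) and was not called in allografts (1.16 ± 0.42 SE, adjusted p = 0.0538), where tumor 319 lay within the 57SCLC range.

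The RIM family tethers calcium channels and Rab3 at the release site. Rims3 read 7008, 6932 and 6980.0 in 57SCLC_cell, 5812, 6980.4 and 6761 in 57SCLC_allo, 46.9, 43 and 42.3 in 46LCNEC_cell, 15.9, 13.7 and 47.6 in 46LCNEC_allo and 262, 187 and 368 in Lung. All 57SCLC samples stood above Lung, and Lung above 46LCNEC. It had the highest per-kilobase level of its class in 57SCLC (870 ± 4.79 SD in culture, n = 3) and differed by 7.27 ± 0.09 SE, adjusted p = 1.92e-09 and 8.15 ± 0.44 SE, adjusted p = 2.28e-05. Rims1 read 985, 954 and 1670.0 in 57SCLC_cell, 1740.3, 2347 and 1782 in 57SCLC_allo, 7.51, 4.41 and 11.5 in 46LCNEC_cell, 2.65, 1.05 and 1.11 in 46LCNEC_allo and 50.8, 60.8 and 50.3 in Lung, and was at least 492-fold higher in 57SCLC_allo (adjusted p = 7.07e-06). Rims2 read 2682, 2700.1 and 5012 in 57SCLC_cell, 2269, 3256 and 2806 in 57SCLC_allo, 114, 184 and 175 in 46LCNEC_cell, 18.5, 102 and 259 in 46LCNEC_allo and 50.8, 56.8 and 44.5 in Lung. In 5 of 6 samples 46LCNEC stood above Lung. Rims2 was called in both settings (4.42 ± 0.28 SE, adjusted p = 2.31e-06 and 5.09 ± 0.86 SE, adjusted p = 0.00248), but the allograft call was lost without tumor 275 (adjusted p = 0.0128), 316 (0.0143) or 317 (0.0128).

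Unc13a and Unc13b encode Munc13 proteins, which open syntaxin for assembly. Unc13a ranged from 5034 to 7895 in 57SCLC, 271 to 695 in 46LCNEC and 389 to 491 in Lung, with 4.01 ± 0.13 SE, adjusted p = 6.52e-08 and 3.99 ± 0.27 SE, adjusted p = 4.96e-05. Unc13b ranged from 1639 to 2171 in 57SCLC, 136 to 279 in 46LCNEC and 1824 to 2062 in Lung, with 3.74 ± 0.11 SE, adjusted p = 3.63e-08 and 2.85 ± 0.22 SE, adjusted p = 7.71e-05. The CAPS proteins Cadps and Cadps2 prime dense-core granules. Cadps2 had 0 reads in every 46LCNEC_cell sample and 0 to 13.2 normalized counts in 46LCNEC_allo, against 4435 to 6405 in 57SCLC_cell, 2755 to 3824 in 57SCLC_allo and 1608 to 1818 in Lung. It was at least 1556-fold higher in 57SCLC_cell than in 46LCNEC_cell (adjusted p = 3.88e-09). Cadps read 2399, 2394 and 4481 in 57SCLC_cell, 1518, 2114 and 1899.6 in 57SCLC_allo, 7.51, 19.9 and 14.6 in 46LCNEC_cell, 21.2, 154 and 410.4 in 46LCNEC_allo and 4.48, 1.00 and 0 in Lung. The difference was called in culture (7.72 ± 0.37 SE, adjusted p = 4.71e-07) and not in allografts (4.03 ± 0.97 SE, adjusted p = 0.0115). Erc2, an active zone scaffold, ranged from 478 to 1401 in 57SCLC, 4.21 to 306 in 46LCNEC and 351 to 482 in Lung, with 3.50 ± 0.43 SE, adjusted p = 0.000119 in culture and 3.90 ± 1.34 (adjusted p = 0.0442) in allografts.

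All 3 Rab3 GTPases, which mark vesicles for release, were called higher in 57SCLC in both settings, against 23.9% and 16.1% of all genes. Rab3a read 1449, 1444 and 1362 in 57SCLC_cell, 972, 859 and 845 in 57SCLC_allo, 194, 178 and 138 in 46LCNEC_cell, 245, 261 and 259 in 46LCNEC_allo and 673, 647 and 649 in Lung. It had the smallest fold changes of the 3 (3.07 ± 0.14 SE, adjusted p = 3.15e-07 and 1.80 ± 0.13 SE, adjusted p = 5.9e-05). Rab3b (chr4:108736260-108800521, plus strand) read 911, 959 and 1576 in 57SCLC_cell, 1463, 2041 and 1793 in 57SCLC_allo, 100.4, 104 and 124 in 46LCNEC_cell, 3.97, 4.21 and 14.4 in 46LCNEC_allo and 40.4, 53.9 and 35.1 in Lung, with 3.34 ± 0.22 SE, adjusted p = 2.64e-06 and 7.89 ± 0.47 SE, adjusted p = 3.06e-05. The 46LCNEC dishes lay above Lung and the 46LCNEC tumors below it. Rab3c read 2672, 2662 and 3648 in 57SCLC_cell, 2456, 3038 and 3184 in 57SCLC_allo, 9.38, 17.7 and 15.4 in 46LCNEC_cell, 0, 1.05 and 2.21 in 46LCNEC_allo and 89.7, 115 and 169 in Lung. It differed by 7.65 ± 0.24 SE, adjusted p = 5.23e-08 in culture and was at least 728-fold higher in 57SCLC_allo (adjusted p = 1.15e-05). The Rab3 effector Rph3a was at most 7.94 in any sample and was not tested.

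On the vesicle itself, Syp encodes synaptophysin, a membrane protein used in diagnosis. It ranged from 658 to 1074 in 57SCLC, 5.30 to 15.5 in 46LCNEC and 52.7 to 62.8 in Lung, with 6.13 ± 0.18 SE, adjusted p = 3.45e-08 and 6.18 ± 0.37 SE, adjusted p = 3e-05. Synapsins tether vesicles to one another and to actin. Syn1 read 2090.3, 1888 and 1558 in 57SCLC_cell, 1259, 1273 and 1293 in 57SCLC_allo, 853, 786 and 806 in 46LCNEC_cell, 697, 673 and 383 in 46LCNEC_allo and 75.5, 88.8 and 86.6 in Lung. It was the smallest of the 25 shared calls (1.17 ± 0.11 SE, adjusted p = 3.13e-05 and 1.17 ± 0.24 SE, adjusted p = 0.00528), and the allograft call was lost without any 1 of the 57SCLC tumors (adjusted p = 0.023 to 0.024) and fell under 2-fold without tumor 321 (0.90).

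Syn2 read 555, 526 and 577 in 57SCLC_cell, 929, 1023 and 1045 in 57SCLC_allo, 12.2, 3.31 and 12.3 in 46LCNEC_cell, 0, 1.05 and 3.32 in 46LCNEC_allo and 297, 306 and 418 in Lung, and was at least 251-fold higher in 57SCLC_allo (adjusted p = 3.18e-05). Syn3 read 116, 99.5 and 216 in 57SCLC_cell, 170.0, 168 and 154 in 57SCLC_allo, 169, 174 and 149 in 46LCNEC_cell, 30.5, 17.9 and 78.5 in 46LCNEC_allo and 261, 260.3 and 248 in Lung. Lung was highest and 46LCNEC_allo lowest, both without overlap. Syn3 was not called between lines in culture (-0.27 ± 0.28 SE, adjusted p = 0.4) or in allografts (2.19 ± 0.52, adjusted p = 0.011). Timp4 and Timp3 lie within Syn2 and Syn3 on the opposite strand, share exon bases with them and are listed at 0 in all 15 samples. Reads in shared bases cannot be told apart without the strand setting of the counting, which is not given in the sources used here. Over 10% of exon bases were shared with another gene in 6 members: Syp, Syn2, Syn3, Syt4, Unc13a and Rab3a.

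SV2 proteins are vesicle glycoproteins. Sv2a read 1442, 1393 and 1336 in 57SCLC_cell, 1324, 1168 and 1162 in 57SCLC_allo, 471, 412 and 382 in 46LCNEC_cell, 64.9, 510.5 and 306 in 46LCNEC_allo and 97.2, 84.8 and 64.4 in Lung. Tumor 312 was the low library of its group. Sv2a was called in culture (1.72 ± 0.10 SE, adjusted p = 1.32e-06) and not in allografts (2.48 ± 0.70 SE, adjusted p = 0.0213). Sv2b read 1629, 1655 and 2741 in 57SCLC_cell, 235, 428 and 374 in 57SCLC_allo, 2.81, 0 and 0 in 46LCNEC_cell, 3.97, 5.26 and 7.74 in 46LCNEC_allo and 9.72, 3.99 and 3.51 in Lung. Outside 57SCLC no sample passed 9.72. It was at least 607-fold higher in 57SCLC_cell than in 46LCNEC_cell (adjusted p = 6.81e-07) and differed by 5.70 ± 0.37 SE, adjusted p = 4.35e-05 in allografts. Sv2c read 9.82, 6.63 and 9.90 in 57SCLC_cell, 4.79, 8.49 and 10.2 in 57SCLC_allo, 12.2, 15.5 and 15.4 in 46LCNEC_cell, 0, 1.05 and 1.11 in 46LCNEC_allo and 63.5, 71.8 and 41 in Lung. Lung was the highest group for Sv2c, and the lines were not called different in culture (-0.66 ± 0.25 SE, adjusted p = 0.0394). Snap91, a clathrin adaptor that recovers vesicle membrane, read 3279.5, 3335 and 4354 in 57SCLC_cell, 1925, 2067 and 1786 in 57SCLC_allo, 9.38, 15.5 and 20.0 in 46LCNEC_cell, 7.95, 22.1 and 16.6 in 46LCNEC_allo and 18.7, 16 and 7.02 in Lung. Outside 57SCLC no sample passed 22.1, and the lines differed by 7.89 ± 0.26 SE, adjusted p = 6.26e-08 and 6.97 ± 0.36 SE, adjusted p = 1.94e-05.

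Within several families, the leading paralog was not the same in every group. Shares are of summed normalized counts per kilobase of exon within a family, as means over 3 samples with their SD. Among the synapsins, Syn1 held 88.8% ± 2.34 in 57SCLC_cell, 76.3% ± 0.79 in 57SCLC_allo, 95.9% ± 0.15 in 46LCNEC_cell and 98.2% ± 1.97 in 46LCNEC_allo, against 32.6% ± 2.63 in Lung, where Syn2 held 48.0% ± 4.53. Unc13a made up 79.4% ± 1.00 of the Munc13 pair in 57SCLC_cell and 72.3% ± 7.81 in 46LCNEC_allo, against 23.3% ± 1.95 in Lung, where Unc13b prevailed. Cadps2 was 99.9% ± 0.08 of the CAPS pair in Lung and 74.2% ± 3.16 in 57SCLC_cell, while in 46LCNEC_cell all CAPS reads were from Cadps, at 7.51 to 19.9 normalized counts. Rims3 led the RIM family in 57SCLC_cell (70.4% ± 7.36) and Lung (77.6% ± 7.65), and Rims2 led in 46LCNEC_cell (64.1% ± 7.40). Rab3a held 97.6% ± 1.80 of Rab3 in 46LCNEC_allo and 64.8% ± 6.74 in 46LCNEC_cell, against 29.7% ± 4.83 in 57SCLC_allo, where Rab3b led at 46.4% ± 3.89, and 90.9% ± 1.37 in Lung. Sv2b made up 47.5% ± 8.19 of SV2 in 57SCLC_cell and 15.5% ± 4.62 in 57SCLC_allo, and Sv2c 40.0% ± 4.06 in Lung. Vamp2 and Cplx2 led their pairs in every sample, at 90.7% or more and 96.7% or more. The shares were not tested.

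**Figure D4:**
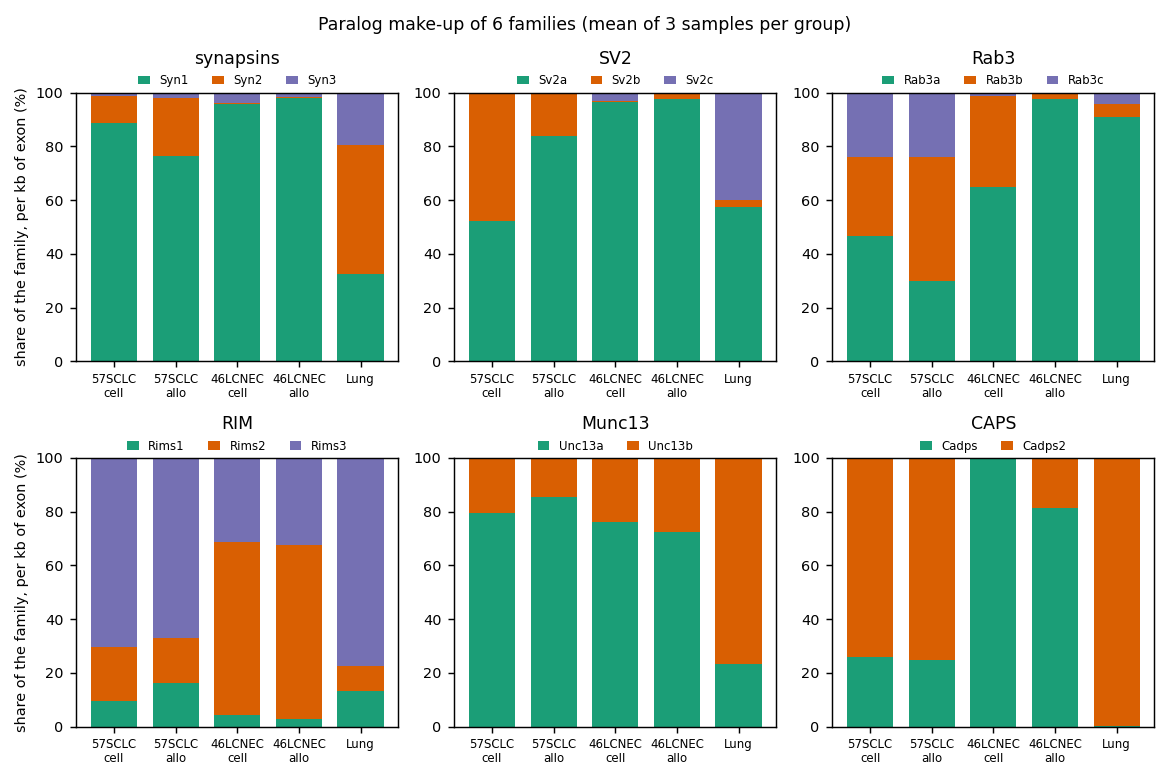
Stacked bars of each paralog's share of its family, in percent of the summed normalized counts per kilobase of exon, as the mean of 3 samples in each group. Syn1, Unc13a and Cadps take larger shares in the 46LCNEC groups than in Lung, Rims2 has the largest mean share of its family in both 46LCNEC groups, and Sv2c has a wide segment in Lung.

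By the median over the members, the 57SCLC groups lay above normal lung and the 46LCNEC groups below it, with members called in both directions. 57SCLC_cell was higher than Lung in 30 of 39 members and lower in 2 (Vamp1 and Sv2c), where 21.1% and 32.7% of all genes tested were called. 57SCLC_allo was higher in 28 of 39 and lower in the same 2, against 18.9% and 26.9%. 46LCNEC_cell was higher than Lung in 7 of 35 members and lower in 17, against 20.6% and 35% of genes. 46LCNEC_allo was higher in 6 of 35 and lower in 17, against 13.4% and 22.1%. The 4 comparisons share the Lung samples. Medians over the members were 4.13 and 4.03 (log2) for 57SCLC cells and allografts and -1.46 and -1.68 for 46LCNEC, and over all genes -0.12, -0.09, -0.23 and -0.14.

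The Vamp1 calls against Lung were close to the 2-fold limit (-1.07 ± 0.09 SE in culture, -1.04 ± 0.09 in allografts) and were under it with edgeR (-0.998 and -0.965), with library-total scaling (-0.84 and -0.83) and with upper-quartile scaling (-0.90 and -0.99). The 10 nerve and Schwann cell markers summed to 34456 to 36011 in Lung and 3768 to 10132 in the other groups, with Th at or under 3 reads in Lung and in both 46LCNEC groups. Prx and Pmp22 held most of the Lung sum (means of 12698 and 18824), and other markers of this list were not highest in Lung. Mbp averaged 8400 in 57SCLC_cell and 3159 in Lung, Prph 295 and 31.7, and S100b 56.5 in 46LCNEC_cell and 6.83 in Lung. The 4 mast cell markers summed to 5524 to 5768 in Lung, 2468 to 3326 in 57SCLC and 46.1 to 384 in 46LCNEC, and Kit made up nearly all of each sum. The other 3 mast cell markers, Cpa3, Mcpt4 and Fcer1a, had 0 reads in 57SCLC_cell and at most 21.2 normalized counts in 57SCLC_allo. The part of these cells in the level of any member in Lung was not tested.

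The shares of members higher in 46LCNEC than in Lung, 20% in culture and 17.1% in allografts, were near those of all genes. Syn1 (3.27 ± 0.12 SE, adjusted p = 1.8e-08 in culture and 2.74 ± 0.27 SE, adjusted p = 0.000217 in allografts), Syt13 (7.07 ± 0.16 SE, adjusted p = 1.16e-09 and 4.41 ± 0.93 SE, adjusted p = 0.00596) and Doc2b (1.65 ± 0.22 SE, adjusted p = 8.86e-05 and 4.16 ± 0.49 SE, adjusted p = 0.000491) were called in both. Syt14 (1.86 ± 0.14 SE, adjusted p = 1.76e-06), Rims2 (1.59 ± 0.24 SE, adjusted p = 0.000175), Sv2a (2.36 ± 0.18 SE, adjusted p = 2.02e-06) and Rab3b (1.34 ± 0.23 SE, adjusted p = 0.000441) were called in culture, and Syt11 (1.18 ± 0.18 SE, adjusted p = 0.00141), Cadps (5.66 ± 1.15 SE, adjusted p = 0.0053) and Bsn (3.01 ± 0.44 SE, adjusted p = 0.00121) in allografts. The Syt13 call in allografts was lost without tumor 319 (adjusted p = 0.0193) or 321 (0.0128), and the Cadps call without 319 (0.0174) or 321 (0.0102). Both were also lost without any 1 of the Lung samples. Rab3b was higher than Lung in culture and lower in allografts (-2.56 ± 0.52 SE, adjusted p = 0.0051), the latter lost without tumor 312 (adjusted p = 0.0176) or 319 (0.0151) or any Lung sample. Members at the floor in 46LCNEC included Cadps2, at least 514-fold lower than Lung in 46LCNEC_cell (adjusted p = 5.67e-10), Syn2, at least 85.7-fold lower in 46LCNEC_allo (adjusted p = 7.43e-05), Rab3c, at least 31.3-fold lower in 46LCNEC_allo (adjusted p = 0.000122), and Pclo, at least 35.6-fold lower in culture (adjusted p = 8.18e-08) and at least 29.7-fold lower in allografts (adjusted p = 1.12e-05).

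Allografts were compared with the cultures they came from. In 57SCLC, 0 of 38 members were higher in the allografts and 3 lower, where 14.4% and 2.29% of all genes tested were called. Sv2b fell the most (-2.54 ± 0.27 SE, adjusted p = 0.00013), followed by Pclo (-1.22 ± 0.11 SE, adjusted p = 5.4e-05) and Cplx1 (-1.10 ± 0.22 SE, adjusted p = 0.00536). The Cplx1 call was lost without flask A (adjusted p = 0.0206) or B (0.0194) or without tumor 316 (0.0215) or 317 (0.0305). The count of members higher in 57SCLC_allo was 0 with limma, edgeR and DESeq2, while 7 members with a higher level had an unadjusted p under 0.05 in limma.

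In 46LCNEC, 3 of 30 members tested were higher in the allografts and 6 lower, against 14.4% and 8.45% of genes. The 9 calls fell to 5, 3 and 3 without dish A, B or C. Bsn rose by 5.39 ± 0.42 SE, adjusted p = 8.34e-05, from 30.0 to 34.6 in the dishes to 894 or more in the tumors, the largest change of the 9. Doc2b rose by 2.51 ± 0.48 SE, adjusted p = 0.00404 and Vamp1 by 1.16 ± 0.19 SE, adjusted p = 0.0019. Rab3b fell by 3.90 ± 0.48 (log2, SE, adjusted p = 0.000606), from at least 100 in every dish to at most 14.4. Snap25 was at least 6.90-fold lower and Sv2c at least 3.61-fold lower (adjusted p = 0.000458 and 0.00139). Syt5 (-3.12 ± 0.71 SE, adjusted p = 0.00858), Syn3 (-2.19 ± 0.50 SE, adjusted p = 0.00866) and Syt7 (-1.76 ± 0.36 SE, adjusted p = 0.00559) also fell. Of these 9, Bsn, Snap25 and Rab3b passed in each fit that left out 1 of the 6 samples. Doc2b was lost without any 1 dish or tumor 321 (adjusted p = 0.0117 to 0.0214). Vamp1 was lost without dish B (0.0125) or C (0.0121), was under 2-fold without tumor 321 (0.99), and Sv2c was lost without dish B (0.0123) or C (0.0135). Syt5, Syn3 and Syt7 were lost without any 1 dish and without tumor 319, and Syn3 and Syt7 also without tumor 312 (adjusted p = 0.0105 to 0.0426).

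Marker sums of several other cell types were higher in the allografts. The 4 fibroblast markers summed to 22.4 to 27.8 in 57SCLC_cell and 30354 to 47803 in 57SCLC_allo, and to 67853 to 78009 in 46LCNEC_cell and 289456 to 664490 in 46LCNEC_allo. The cultured 46LCNEC line itself held these markers above Lung (17675 to 22052). In 46LCNEC they therefore cannot tell host cells from tumor cells. The 7 immune markers summed to 267 to 406 in the cultures, 2816 to 4673 in 57SCLC_allo and 8165 to 14615 in 46LCNEC_allo. Itgam was listed at 0 in every sample, also in Lung, where the 7 markers summed to 9089 to 10001. Its 0 was not taken as absence of cells that express it. The 4 endothelial markers rose from 63.3 to 454 in the cultures to 2415 to 8323 in the tumors. The 4 skeletal muscle markers summed to 11.5 to 73.7 outside Lung, and the 3 fat markers to 1.09 to 80.7 in the cultures and 194 to 2368 in the tumors. The part of host cells in the changes of Bsn, Doc2b or Vamp1, or in the falls, was not tested. The 46LCNEC allografts also varied most among themselves, with a median coefficient of variation of 53.9% over 25 members with a mean of at least 10, against 8.96% to 13% in the other groups and 19.2% over all genes of 46LCNEC_allo.

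The difference between the lines itself changed with the setting in 13 of 39 members, 9 upward and 4 downward from culture to allograft, where 10.8% and 6.78% of all 18440 genes tested were called. With a pseudocount of 0.1 in place of 1, 5 were called upward and 4 downward. It widened most in Rab3b (by 4.55 ± 0.54 SE, log2, adjusted p = 5.35e-05) and Snap25 (by 4.19 ± 0.45, adjusted p = 2.56e-05), both with lower levels in the 46LCNEC allografts. It narrowed in Bsn (-5.68 ± 0.50, adjusted p = 4.9e-06), where the 46LCNEC allografts were higher, and in Sv2b (-4.59 ± 0.70, adjusted p = 0.000368), where the 57SCLC allografts were lower. For Sv2b, the 46LCNEC cultures lay at the floor and the 46LCNEC allografts near it, so the size of the fitted change depends on the pseudocount. Rab3a (-1.27 ± 0.19, adjusted p = 0.00029) and Vamp1 (-1.13 ± 0.21, adjusted p = 0.00146) narrowed too, the latter falling to -0.96 without tumor 321.

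The extra spread between flasks of 57SCLC_cell followed the length of the gene. The log2 ratio of flask C over the mean of A and B had a median of 0.90 over 9 members that span 250 kb or more, 0.19 over 8 of 100 to 250 kb, -0.09 over 15 of 20 to 100 kb and -0.12 over 6 shorter ones. It was highest in Erc2 (1.53), Stxbp5l (1.33) and Syn3 (0.99) and lowest in Bsn (-0.70). Genes overall did the same, with a median of 0.70 at 250 kb or more and -0.15 under 20 kb. Spearman's rho between span and ratio was 0.73 over 38 members and 0.47 over 11740 genes with a mean of at least 100, as a description over genes of the same 3 libraries. Without flask C, 33 members were called against Lung in culture (32 of the 32 called with it), the same 3 were called between allograft and culture of 57SCLC, and 12 were called in the difference between lines (11 of the 13). RNA quality, intron reads and strand were not part of the files used here, and the cause was not tested.

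**Figure D5:**
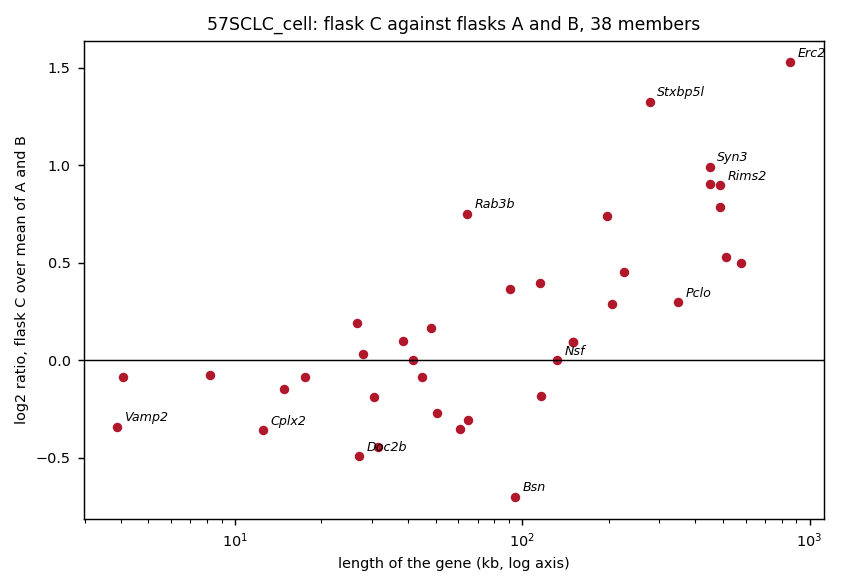
Log2 ratio of flask C over the mean of flasks A and B of 57SCLC_cell (vertical axis) against the length of the gene in kb (log axis) for 38 members. Members above 250 kb, such as Erc2 and Stxbp5l, lie above 0 and most short members lie below it.

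Of 100 further genes of vesicle trafficking and release, 31 of 86 tested were higher in 57SCLC_cell than in 46LCNEC_cell and 16 lower, and 32 of 88 were higher and 13 lower in allografts, which is 36% and 18.6% in culture and 36.4% and 14.8% in allografts. The higher shares were above the all-gene shares of 23.9% and 16.1%, and the lower shares were near those of 22.2% and 14.2%. The medians were 0.55 and 0.48. The same direction was called in both settings for 29 higher and 9 lower genes. By the fitted difference between allografts, the 3 highest of these in 57SCLC were Rimbp2, a linker of RIM and calcium channels, the sensor Syt9 (log2 fold change 9.86 ± 0.34 SE in culture and 10.19 ± 0.84 in allografts) and Sncb, beta-synuclein. Rimbp2 and Sncb lay at the floor in 46LCNEC. Rimbp2 was at least 2126-fold higher in culture and at least 1740-fold higher in allografts, and Sncb at least 169-fold (adjusted p = 1.69e-07) and at least 243-fold higher (adjusted p = 1e-05). The 3 lowest were Syt12 (log2 fold change -7.01 ± 0.15 SE in culture and -4.92 ± 0.71 in allografts), Unc13c and Ston1, an endocytic adaptor (log2 fold change -4.83 ± 0.11 SE in culture and -2.89 ± 0.19 in allografts). Unc13c differed by -4.91 ± 0.46 (log2, SE, adjusted p = 2.34e-05) in culture. In allografts it lay at the floor in 57SCLC and was at least 3.89-fold lower (adjusted p = 0.0019), a bound smaller than the folds of Ston1 and of the next gene in that order. Syt12 stood at 1315 ± 80.4 (SD, n = 3) in 46LCNEC_cell and 9.25 ± 1.03 in 57SCLC_cell. A synaptotagmin and a Munc13 outside the 41 members were thus among the genes lower in 57SCLC.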

How the data were processed

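RNA-seq of 15 mouse samples in 5 groups of 3 was used. Per the study's methods, the authors aligned reads with Rbowtie2, counted them to GENCODE M27 genes with featureCounts (Rsubread) and scaled them with DESeq2. Software versions and the strand setting are not given in the sources used here. The deposited values were a signal: read counts divided by the size factor of each sample, for 55359 genes. Dividing by the value of 1 read gave whole reads for 100% of values in each sample, within 0.01 of a whole number.

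A gene entered a test when 3 or more of the samples compared reached 10 normalized counts. Values on the log2(normalized count + 1) scale were fitted by limma 3.58.1 (trend, empirical Bayes, two-sided; R 4.3.3), using the 6 samples of each pair of groups or, for the difference between lines, 12 samples. P-values were adjusted by the Benjamini-Hochberg method over all genes tested. A call required an adjusted p not above 0.01 together with a 2-fold change, as in the study's methods. Levels per kilobase used the union of exons of GENCODE M39 (GRCm39), which also gave coordinates, spans and sequence (pysam 0.24.0), and 98.9% of identifiers matched. Alternatives were edgeR 4.0.16 and DESeq2 1.42.0 on the recovered reads, other scalings, filters, pseudocounts (0.1 and 5) and thresholds, 1 model of all samples, leaving out each sample, and a replicate block on the culture letters. The fits were tested on simulated data with the same dispersion for all genes. Changes of 4-fold and 8-fold were recovered in 99% to 100% of the genes changed. Genes with low means were not among those changed, and the wide spread among the 46LCNEC allografts was not reproduced.

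The 41 members, the role classes, the wider list of 102 genes (100 in the matrix) and the marker lists were chosen with earlier results of these data known. Values in each sample are given for members that lead their role class, members with the 6 largest changes between allografts, members called lower in 57SCLC, members that differ between allograft and culture or in the difference between lines, and members higher in 46LCNEC than in Lung. Outside this rule, ranges are given. Of the wider list, 3 genes per direction were named by the change between allografts among those called in both settings. Depth of 9480244 to 44876572 reads sets a floor of 3 reads per library. Part of the genotype of the mice is not reported here.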

Additional observations from a re-analysis of the deposited data

Results flagged for a closer look

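For 13 members, the difference between the lines (57SCLC over 46LCNEC, log2) was not the same in allografts as in culture, by the interaction term in limma over 12 samples. The changes are given as allografts minus culture with the SE and the adjusted p.

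It widened in 7 members called in both settings. These were Rab3b by 4.55 ± 0.54 (adjusted p = 5.35e-05), Snap25 by 4.19 ± 0.45 (2.56e-05), Syt5 by 3.48 ± 0.74 (0.00321), Syn2 by 2.99 ± 0.73 (0.00719), Rab3c by 2.93 ± 0.53 (0.00117), Rims1 by 2.47 ± 0.50 (0.00251) and Syt7 by 1.83 ± 0.40 (0.00391). The 46LCNEC allografts lay at or under the floor of 3 reads for Snap25, Syn2, Rab3c and Rims1, so their fitted changes depend on the pseudocount.

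In Sv2c (3.05 ± 0.57, adjusted p = 0.00155) and Syn3 (2.46 ± 0.62, adjusted p = 0.0086), the lines were not called different in culture, with Sv2c at -0.66 and Syn3 at -0.27. Sv2c also lay at the floor in the 46LCNEC allografts.

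It narrowed in Bsn (-5.68 ± 0.50, adjusted p = 4.9e-06), from 6.84 in culture to 1.16 in allografts, in Sv2b (-4.59 ± 0.70, 0.000368), from 10.28 to 5.70, in Rab3a (-1.27 ± 0.19, 0.00029), from 3.07 to 1.80, and in Vamp1 (-1.13 ± 0.21, 0.00146), from 1.76 to 0.63.

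Leaving out 1 library ended some of these calls. Syn3 was lost without any 1 of flasks A and B, dishes A, B and C, tumors 275, 316, 317, 312 and 319 (adjusted p = 0.0105 to 0.0256). Syn2 was lost without any 1 flask, dish A or C, or tumors 275, 316, 317, 312 or 319 (0.0104 to 0.0223), Syt7 without flask C, tumor 316 or 317, or dish A or B (0.0109 to 0.012), and Syt5 without dish C (0.0109). Vamp1 was under 2-fold without tumor 321 (-0.96). With a pseudocount of 0.1, the higher calls went from 9 to 5, and Syt5 (adjusted p = 0.0369), Syn2 (0.0345), Rab3c (0.0165), Sv2c (0.0114) and Syn3 (0.0108) were lost. Syn3 was also lost with edgeR (0.0174), and Syn2 (0.0101) and Syn3 (0.0115) without the filter on low values. A test against a fold change of 2 kept 4 of the 13. The marker sums of fibroblasts, immune cells and endothelium also differed between culture and allograft in both lines, and their part in these changes was not tested.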

How the results depend on the processing

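The count of members called between the lines was 36 in culture (34 to 37 over all alternatives) and 25 in allografts (22 to 32). A test against a fold change of 2 lowered the counts to 24 in the wider list between allografts, 13 for 46LCNEC_allo against Lung, 1 for 57SCLC_allo against culture, 3 for 46LCNEC_allo against culture and 4 for the difference between lines. With all 15 samples in 1 model, 18 members were called for 46LCNEC_allo against culture, including the 9 called before. Leaving out 1 sample gave 36 to 37 members in culture, 22 to 28 in allografts, 32 to 33 and 29 to 31 for 57SCLC cells and allografts against Lung, 24 to 25 and 18 to 25 for 46LCNEC, 2 to 3 for 57SCLC_allo and 3 to 10 for 46LCNEC_allo against culture (5, 3 and 3 without dish A, B or C), 10 to 15 for the difference between lines, and 44 to 52 and 34 to 45 in the wider list. These fits kept genes with the minimum in 2 samples. With the longest transcript in place of the exon union, Vamp2 per kilobase was 602, 857 and 1935 in 46LCNEC_cell, 46LCNEC_allo and Lung.

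Single members were followed over the alternatives for differences called in the main fit and for uncalled differences picked for the text. Among these, the sign turned in 2 that were not called, both between allografts. They were Nsf, 0.0994 (adjusted p = 0.678) with library-total scaling, and Syt13, -0.241 (adjusted p = 0.322) without tumor 312. Syt13 had a range of -0.241 to 1.59 over the fits that left out 1 sample. Over this set and the alternatives, 3285 values kept their direction and side of the threshold, 158 lost the call and 35 gained it. Sign changes and gained calls among the other uncalled differences are not in these counts. Causes of the changes were not tested.

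The culture letters A, B and C did not pair the samples. Deviations of flasks and dishes with the same letter correlated at 0.0916, -0.0837 and -0.00619, and the fit with a replicate block called the same 36 members and the same 47 genes of the wider list. The allografts and Lung carry animal numbers that are not shared. Depth limits members at the floor to lower bounds.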

Other observations

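By group mean, 25 members were highest in 57SCLC_cell, 10 in 57SCLC_allo, 5 in Lung (Syn3, Vamp1, Vamp2, Unc13b and Sv2c) and 1 in 46LCNEC_cell (Syt13). The same count was not made over all genes, so these numbers describe the members only. No order between neighbouring groups was tested here.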
